A study of Mus musculus with 6 samples.

Results

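In CGR8 mouse embryonic stem cells, 635 of 64018 accessible regions on chromosomes 1 to 19 (0.992%) had a peak in both mitotic lists and in at least 1 late mitotic list, and none in early G1. These regions are described here. They were found by ATAC-seq, in which the transposase Tn5 inserts sequencing adapters into open DNA. Peaks of all 6 lists were merged wherever they shared 1 bp, and a merged region was kept when both mito lists, LM replicate 1 or LM replicate 2 or both, and neither eG1-1 list held a peak in it. Because the presence of peaks in all 6 lists chose the regions, their peaks and scores are given as descriptions. No sample was left on which the choice could be tested, so no test was made.

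The labels name 3 groups, mito, LM and eG1-1, with 2 replicates each. The series title speaks of mitotic exit, and mito, LM and eG1-1 are taken here to stand for mitosis, its late stage and early G1. This reading is not given in the labels. The peak names of the LM lists read Telo. All groups were untreated CGR8 cells. The titles give N2B27 medium, which the protocol assigns to the line the design text calls Cdt1-MD. That medium, used on gelatin, contained the GSK3 inhibitor CHIR99021, the MEK inhibitor PD184352 and leukemia inhibitory factor. The labels give neither the sorting that separated the groups nor whether replicates were separate cultures, so the spread between replicates may be technical. The number of cells per sample also differs between the titles and the protocol.

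Peaks numbered 24598 and 30446 for mito, 23867 and 20639 for LM and 32101 and 48396 for eG1-1 (replicates 1 and 2). Reads per list are unknown, and a missing peak says only that none was called. Per the peak names, replicate 1 of every group came from one sequencing run and replicate 2 from another. Of 10 embryonic stem cell marker genes, such as Pou5f1 and Nanog, 9 and 7 had a peak within 1 kb of an annotated end in the mito lists, 5 and 3 in LM, and 3 and 7 in eG1-1. Of 4 endoderm markers, 0 had one in 5 lists and 1 in eG1-1 replicate 2. Fibroblast markers reached 3 of 5, mesoderm markers 3 of 4 and neural markers 4 of 4 in single lists. Of all 20665 protein-coding genes, 7646 to 11214 had such a peak in a list. No marker gene had one of the 635 regions at its ends.

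Chromosomes condense in mitosis and most transcription stops, yet many promoters remain reachable by transposase, and some transcription factors stay on chromosomes. As cells leave mitosis, the nucleus reassembles and transcription restarts in waves before a G1 pattern is set. Promoters of housekeeping genes are often rich in CpG and carry short words read by general activators, such as the CCAAT box bound by NF-Y and the GC box bound by Sp and Klf factors.

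Promoter windows from RefSeq (GRCm38.p6, the assembly of mm10) run from 250 bases before a start site to 50 after it. In all, 286 of 31396 windows shared a base with one of the 635 regions. The first 5 sequences show promoters that hold a CCAAT box within 200 bases before the start. They were chosen from the named genes below whose 200 bases lay wholly under the region. Capitals mark each match, on either strand, to the words searched. These were the GC box GGGCGG, the CCAAT box, the ETS word CCGGAA, the NRF1 word GCATGCGC, the cAMP response word TGACGTCA, the E-box CACGTG, the TATA box TATAAA, the YY1 word AAGATGGC, the cell cycle word TTTGAA, the AP-1 word TGACTCA and the octamer ATTTGCAT. Sequences run 5′ to 3′ on the strand of the gene. Their mm10 positions are Lmtk2 chr5:144100161-144100360 (+ strand), Fkbp8 chr8:70527543-70527742 (+ strand), Myl6 chr10:128493887-128494086 (- strand), Rrm2 chr12:24708054-24708253 (+ strand) and H2bc7 chr13:23574208-23574407 (- strand).
Lmtk2: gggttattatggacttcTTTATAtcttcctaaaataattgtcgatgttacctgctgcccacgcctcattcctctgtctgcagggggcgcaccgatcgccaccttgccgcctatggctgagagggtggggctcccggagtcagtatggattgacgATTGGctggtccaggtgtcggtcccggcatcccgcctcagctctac
Fkbp8: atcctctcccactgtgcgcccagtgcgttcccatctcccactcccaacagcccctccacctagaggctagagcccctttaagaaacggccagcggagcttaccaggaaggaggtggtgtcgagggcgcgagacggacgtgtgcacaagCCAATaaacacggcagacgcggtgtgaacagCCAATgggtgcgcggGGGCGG
Myl6: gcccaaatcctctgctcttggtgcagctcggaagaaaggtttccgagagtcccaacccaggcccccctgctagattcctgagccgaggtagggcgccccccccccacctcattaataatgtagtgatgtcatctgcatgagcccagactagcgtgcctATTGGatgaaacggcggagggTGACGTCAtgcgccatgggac
Rrm2: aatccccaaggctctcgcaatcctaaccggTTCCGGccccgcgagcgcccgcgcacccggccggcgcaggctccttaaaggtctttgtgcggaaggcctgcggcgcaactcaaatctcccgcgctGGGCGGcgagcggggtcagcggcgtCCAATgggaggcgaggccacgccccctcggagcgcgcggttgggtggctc
H2bc7: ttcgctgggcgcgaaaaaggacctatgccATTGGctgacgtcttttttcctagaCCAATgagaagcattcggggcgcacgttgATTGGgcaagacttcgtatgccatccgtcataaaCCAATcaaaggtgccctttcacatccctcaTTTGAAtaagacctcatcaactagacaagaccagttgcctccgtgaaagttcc

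The next 5 are promoters in the same position without a CCAAT box. Tmco1 and Eif2s2 hold none of the words, H4c6 holds GC boxes, Piezo1 a GC box and TATAAA, and Xpot a GC box and the AP-1 word TGACTCA. Their mm10 positions are Tmco1 chr1:167308470-167308669 (+ strand), Piezo1 chr8:122551330-122551529 (- strand), Eif2s2 chr2:154892907-154893106 (- strand), Xpot chr10:121626333-121626532 (- strand) and H4c6 chr13:23551669-23551868 (- strand).
Tmco1: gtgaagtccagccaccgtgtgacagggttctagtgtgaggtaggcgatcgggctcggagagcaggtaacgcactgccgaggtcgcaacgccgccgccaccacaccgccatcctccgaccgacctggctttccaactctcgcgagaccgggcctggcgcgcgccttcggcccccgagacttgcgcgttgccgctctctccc
Piezo1: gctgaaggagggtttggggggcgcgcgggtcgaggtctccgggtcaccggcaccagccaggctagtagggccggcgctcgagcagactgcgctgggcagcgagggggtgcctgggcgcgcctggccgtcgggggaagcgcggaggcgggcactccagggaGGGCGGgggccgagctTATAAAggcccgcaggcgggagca
Eif2s2: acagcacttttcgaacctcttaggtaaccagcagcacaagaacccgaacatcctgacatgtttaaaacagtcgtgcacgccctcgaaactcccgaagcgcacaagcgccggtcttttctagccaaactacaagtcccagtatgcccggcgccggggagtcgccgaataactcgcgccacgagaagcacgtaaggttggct
Xpot: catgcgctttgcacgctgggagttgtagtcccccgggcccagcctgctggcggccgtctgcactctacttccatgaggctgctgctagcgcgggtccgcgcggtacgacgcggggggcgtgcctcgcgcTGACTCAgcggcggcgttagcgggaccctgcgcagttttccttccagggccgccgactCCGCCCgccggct
H4c6: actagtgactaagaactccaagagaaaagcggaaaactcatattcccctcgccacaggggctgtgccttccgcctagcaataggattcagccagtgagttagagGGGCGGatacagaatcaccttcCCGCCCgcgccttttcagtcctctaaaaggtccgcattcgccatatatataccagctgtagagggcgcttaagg

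A CCAAT box, on either strand, was found in 84 of the 286 windows (29.4%, Wilson 95% interval 24.4% to 34.9%). In the 7273 windows at regions of both mito lists and at least 1 LM list with a peak in both eG1-1 lists, it was found in 46.9% (45.8% to 48.1%). In the 1218 windows at such regions with a peak in a single eG1-1 list it was found in 27.9% (25.5% to 30.5%), and in all 31396 windows in 37.3%. The share at the 635 regions lay inside the interval of regions that a single eG1-1 list kept. These intervals, like those that follow, cover counting error only, and neighbouring windows can overlap. The differences were not tested, since regions are not replicates.

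Base composition also differed between the sets. The windows at the 635 regions had a median GC content of 65.8%, those at regions with a peak in both eG1-1 lists 61.3%, and all windows 53.0%. The ratio of observed to expected CpG was above 0.6 in 86.4% (81.9% to 89.9%), 78.1% (77.2% to 79.1%) and 36.4% of the same 3 sets. Within windows of 60% to 70% GC the CCAAT share was 23.5% (16.7% to 32.0%) at the 635 regions and 46.1% (44.4% to 47.8%) at regions kept in both eG1-1 lists. Within windows of at least 70% GC it was found in 22 of 88 windows (17.1% to 34.96%) and in 34.6% (31.7% to 37.5%), and below 60% GC 42.2% (32.1% to 52.9%) and 51.8% (50.0% to 53.6%). The intervals of the first pair are apart, and those of the other pairs overlap. In all promoter windows the CCAAT share was 39.7% below 60% GC, 36.2% at 60% to 70% and 22.5% at 70% or more. The share at the 635 regions was below that of all windows at 60% to 70% GC alone. For windows wholly under the region the shares were 31.2% (24.5% to 38.8%) and 49.0% (47.8% to 50.3%). The CCAAT share was higher at higher rank. In the lowest, middle and highest of 3 equal parts of the mito ranking the CCAAT share was 24.7%, 26.9% and 43.4% at the 635 regions, and 31.7%, 36.3% and 51.0% at regions kept in both eG1-1 lists. Each gap was narrower than the overall one, and the direction was the same. The parts held 237, 332 and 66 of the 635 regions, and no intervals were computed for these shares. Without LM replicate 1 the shares were 38.1% and 48.7%, and for the 113 regions with a score of at least 50 in mito and LM 43.7% and 49.96%. Within the lists of run 1 alone the shares were 28.7% and 46.5%, and within those of run 2 alone 32.8% and 47.3%. The part of base composition and rank in the CCAAT share was not tested beyond these splits, which were chosen after the overall shares had been seen.

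The GC box GGGCGG was in 65.4% of windows at the 635 regions (59.7% to 70.7%), in 68.8% at regions kept in both eG1-1 lists and in 35.98% of all windows. The ETS word CCGGAA was in 33.6% (28.3% to 39.2%), 32.3% and 15.1%, and the NRF1 word GCATGCGC in 8.39% (5.70% to 12.2%), 6.15% and 2.698%. The YY1 word AAGATGGC was in 9.09% (6.28% to 12.99%) of the windows at the 635 regions, in 5.06% (4.58% to 5.59%) at regions kept in both eG1-1 lists and in 2.75% of all windows. TATAAA, read by the TATA-binding protein, was in 10.1% (7.15% to 14.2%), 5.31% (4.82% to 5.85%) and 13.6%. For both words the intervals of the first 2 sets were apart over all their windows. In windows wholly under the region those of TATAAA overlapped, at 8.28% (4.90% to 13.7%) and 5.08% (4.55% to 5.67%). Those of AAGATGGC stayed apart there. Within each range of GC content those of AAGATGGC overlapped, and those of TATAAA were apart below 60% GC alone. In windows at regions kept in 1 eG1-1 list TATAAA was found in 7.06% (5.75% to 8.64%). The octamer ATTTGCAT, read by Oct factors, was in 1.05%, 1.51% and 1.75%. The E-box CACGTG was in 9.79%, 10.7% and 7.14%, TTTGAA in 11.2%, 10.6% and 17.6%, TGACTCA in 3.15%, 2.63% and 5.26%, and TGACGTCA in 1.75% (0.749% to 4.03%), 3.77% (3.35% to 4.23%) and 1.83%. A match is a run of letters and does not show that a factor was bound.

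Most of the 635 regions ranked in the lower part of the lists. Their median score, a whole number the authors gave each peak, was 45 in mito replicate 1, 51 in mito replicate 2, 43 in LM replicate 1 and 36 in LM replicate 2. These medians stood at the 38.2, 41.1, 37.3 and 32.9 percentile of their lists. Regions with a peak in both eG1-1 lists stood at the 69.6, 75.3, 70.7 and 68.7 percentile in the same order. In mito replicate 1, 239 of the 635 (37.6%) lay above the median of the list and 13 among its top 10% of peaks. In mito replicate 2 the counts were 250 (39.4%) and 8.

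**Figure D1:**
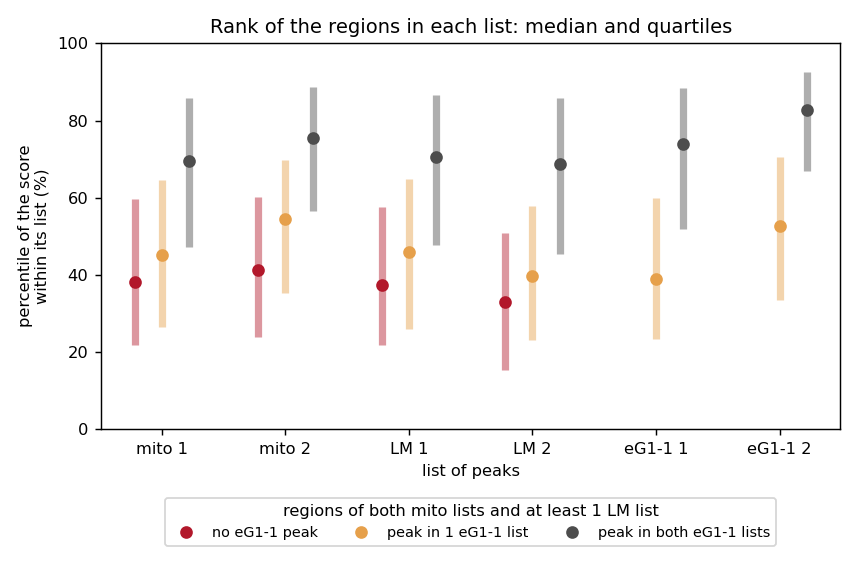
Percentile of the peak score within each list (y axis) for 3 classes of regions held by both mito lists and at least 1 LM list; points are medians and bars run between the quartiles. Regions without an eG1-1 peak had medians between 32.9 and 41.1 in the 4 lists that held them, below those of regions with a peak in 1 or in both eG1-1 lists.

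The share of regions without an eG1-1 peak was lower at higher rank. Of the 16254 regions held by both mito lists and at least 1 LM list, 635 had no eG1-1 peak (3.91%), 398 had one in eG1-1 replicate 1 alone and 2205 in eG1-1 replicate 2 alone. Among regions with a mean mito percentile of up to 20, 77 of 563 had no eG1-1 peak (13.7%, 11.1% to 16.8%). The share was 10.0% between 20 and 40, 5.05% between 40 and 60, 2.00% between 60 and 80, and 0.452% (21 of 4650) above 80. Without eG1-1 replicate 2, the longest list, 2834 regions met the rule, and without eG1-1 replicate 1 there were 1031. Without mito replicate 1 or 2 the counts were 1292 and 1096, and without LM replicate 1 the count was 233. Within the 3 lists of run 1 alone 3086 regions met the rule, and within those of run 2 alone 765.

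The LM lists split the regions unevenly. Both LM lists held 128 (20.2%, 17.2% to 23.5%), LM replicate 1 alone 409 (64.4%) and LM replicate 2 alone 98 (15.4%). Of the regions kept in both eG1-1 lists, both LM lists held 76.4%. The count of 128 became 1002 without eG1-1 replicate 2 and 245 without eG1-1 replicate 1. The 128 regions of both LM lists had median mito scores of 54 and 60.5, those of LM replicate 1 alone 45 and 51, and those of LM replicate 2 alone 38 and 48. Relative to its own mean mito percentile, a region stood a median of 2.43 percentage points lower in LM replicate 1 and 11.5 points lower in LM replicate 2. Lower values were counted for 290 of 537 and 149 of 226 regions. Regions kept in both eG1-1 lists stood 1.06 and 3.57 points lower. The lists differ in length, so these positions cannot show whether there was a change between stages.

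Replicates ranked the 635 regions only loosely. Across the regions, Spearman's rho of the scores was 0.35 between the mito lists, 0.32 between the LM lists, 0.36 and 0.31 between LM replicate 1 and each mito list, and 0.15 and 0.20 between LM replicate 2 and each mito list. Regions kept in both eG1-1 lists gave 0.68 between the mito lists and 0.60 between the LM lists. These values describe regions that share libraries, over a narrower range of scores in the first set. Peaks at the 635 regions had median widths of 409 and 437 bp in mito and 414 and 272 bp in LM, against 622 and 721 bp, and 611 and 431 bp, at regions kept in both eG1-1 lists.

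The largest class of regions lay at the ends of protein-coding genes. Of the 635, 324 (51.0%, 47.1% to 54.9%) came within 1 kb of an annotated end, 152 (23.9%) lay elsewhere inside a gene and 159 (25.04%) between genes. Gene ends took 47.8% (46.9% to 48.6%) of regions kept in both eG1-1 lists and 47.4% (45.5% to 49.3%) of regions kept in 1. They took 36.7% (32.7% to 40.8%) of the 548 regions held by both mito lists alone and 23.2% of all 64018 regions. The first 3 shares have overlapping intervals. Without mito replicate 1 the order turned, with 41.6% for regions without and 43.9% for regions with eG1-1 peaks, and without LM replicate 1 it turned as well, with 45.9% and 48.2%. Within the lists of run 1 alone the shares were 49.3% and 49.1%, and within those of run 2 alone 32.2% and 43.3%, so the order depended on the run.

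Set beside regions in the same part of the mito ranking kept in both eG1-1 lists, the gene-end shares stood farther apart. In the middle of 3 equal parts of the mito ranking, 186 of 332 regions without an eG1-1 peak were at a gene end (56.0%, 50.6% to 61.3%), against 35.1% (33.8% to 36.5%) of those with a peak in both eG1-1 lists. In the lowest part the shares were 38.4% (32.4% to 44.7%) and 23.8% (21.4% to 26.4%), and in the highest 71.2% (59.4% to 80.7%) and 59.6% (58.4% to 60.7%). Regions with a peak in 1 eG1-1 list lay between, at 35.2% (31.5% to 39.0%), 47.1% (44.5% to 49.6%) and 63.3% (59.0% to 67.4%) from lowest to highest. Their intervals overlapped those of the regions without an eG1-1 peak in the lowest and highest parts. The split by rank was chosen after the overall shares had been seen. It was not repeated within a single run or with a list left out, and ranks within a part can still differ between the classes.

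**Figure D2:**
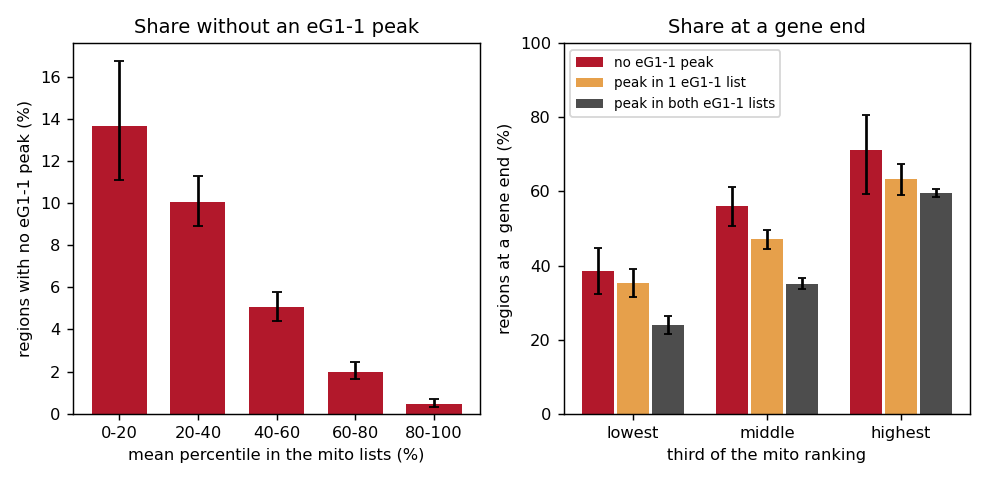
Left, share of regions without an eG1-1 peak among regions of both mito lists and at least 1 LM list, by their mean percentile in the mito lists; right, share of regions within 1 kb of the end of a protein-coding gene, by part of the mito ranking and class; bars are shares and error bars Wilson 95% intervals. The share without an eG1-1 peak is 13.7% in the lowest bin and 0.452% in the highest, and in each part of the ranking the gene-end share is highest for regions without an eG1-1 peak. In the lowest and highest parts its interval overlaps that of regions with a peak in 1 eG1-1 list.

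The LM list that held a region went with its place. Gene ends took 57.8% (49.2% to 66.0%) of the 128 regions of both LM lists and 55.0% (50.2% to 59.8%) of those of LM replicate 1 alone, but 25.5% (17.9% to 34.95%) of those of LM replicate 2 alone. The same split stood at 51.3%, 45.04% and 18.2% among regions kept in both eG1-1 lists. LM replicate 2 was the shortest list and had the narrowest LM peaks. The part of that library in the place of these regions was not tested.

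Around start sites, fewer of the regions were centred on the start and more on its flanks than among regions kept in early G1. Start sites came from the promoter windows, which cover part of the genes and no gene of chromosome 18, leaving 617 regions. The centre of the mito peaks lay under 250 bp from a start site in 155 regions (25.1%, 21.9% to 28.7%) and 250 bp to 1 kb away in 128 (20.7%, 17.7% to 24.1%). Among regions kept in both eG1-1 lists these shares were 33.2% (32.4% to 34.1%) and 11.7% (11.2% to 12.3%), so the intervals of both pairs were apart. Regions kept in 1 eG1-1 list had 25.7% and 16.2% (14.9% to 17.7%), and regions of both mito lists alone 9.85% and 19.7% (16.6% to 23.3%). Centres within 1 kb lay on both sides of the start, with 152 regions before it and 131 after. Without LM replicate 1, 13.2% lay 250 bp to 1 kb away, against 11.3% of the regions then kept in both eG1-1 lists. The share was 25.4% (21.4% to 29.9%) for regions of LM replicate 1 alone, 17.6% (11.9% to 25.2%) for those of both LM lists and 5.26% (2.27% to 11.7%) for those of LM replicate 2 alone. Among regions kept in both eG1-1 lists it was 14.001% (12.6% to 15.6%), 11.98% (11.3% to 12.6%) and 4.59% (3.45% to 6.08%) in the same order. At this distance the intervals were apart for LM replicate 1 alone and overlapped in the other LM classes. Under 250 bp the shares were 26.2%, 28.8% and 15.8% for the 635 regions and 27.7%, 36.5% and 12.4% for the kept ones. The intervals overlapped in each of these pairs, with 21.6% to 37.3% and 35.6% to 37.5% for both LM lists. The gap under 250 bp was thus not resolved within any LM class. Both LM lists held 20.2% of the 635 regions and 76.4% of the kept ones, and the part of this mix in the gap was not tested. Within the lists of run 1 alone, 17.0% of regions lay 250 bp to 1 kb away, against 11.9% of the kept ones, and within those of run 2 alone 13.6% and 12.3%.

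**Figure D3:**
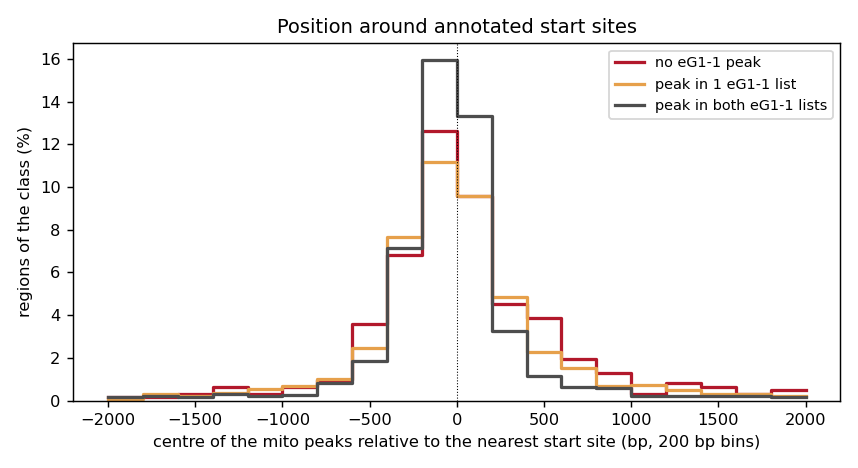
Distance from the nearest annotated start site to the centre of the mito peaks in 200 bp bins (x axis, negative before the start), as a percent of each class of region (y axis). Regions without an eG1-1 peak are fewer than regions with a peak in both eG1-1 lists within 200 bp of the start and more frequent from 400 to 800 bp after it.

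Early G1 peaks lay at a range of distances. The nearest eG1-1 peak was under 200 bp away for 28 regions (4.41%), from 200 bp to 1 kb for 141 (22.2%), from 1 to 10 kb for 303 (47.7%) and farther for 163 (25.7%), with a median gap of 4118 bp. The 169 near peaks under 1 kb had a median score of 43, and 118 of them were in eG1-1 replicate 2. Regions at gene ends had a near peak under 1 kb in 29.9% (25.2% to 35.1%) and regions elsewhere in 23.2% (18.8% to 28.1%). In 240 of the 324 gene-end cases (74.1%, 69.0% to 78.5%) the 1 kb window around the gene end held no eG1-1 peak at all, in 51 one eG1-1 list had a peak there and in 33 both had. Gene ends of the last kind, such as those of Aspscr1, of the nuclear transport GTPase gene Ran and of the histone pair H2ac7 and H2bc7, thus kept an early G1 peak beside the region that had none.

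**Figure D4:**
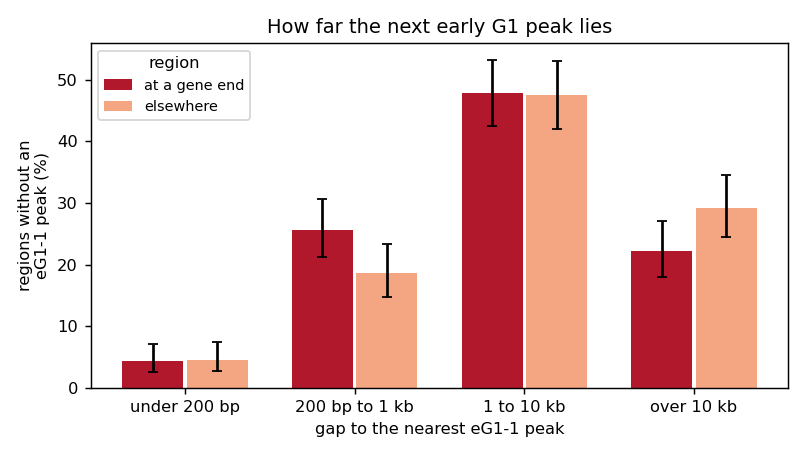
Gap from each region without an eG1-1 peak to the nearest eG1-1 peak (x axis) for the 324 regions at gene ends and the 311 elsewhere; bars are percent of regions and error bars Wilson 95% intervals. Gaps of 1 to 10 kb are the largest class in both, at 47.8% and 47.6%.

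At the limits of the rule the scores were low on both sides. Of the 635 regions, 36 had a lower mito score of 20 or less, and 5 had the lowest score of any list, 13, among them the end of Msl1, which encodes a subunit of a histone acetyltransferase complex. Just outside, 67 of the 2603 regions with 1 eG1-1 peak had a score of 20 or less there. At Rcor3, a corepressor gene, the mito scores were 92 and 55 and the LM scores 99 and 55, with a peak of 13 in eG1-1 replicate 1. At Setd2, which encodes the H3K36 trimethylase, the mito scores were 58 and 84, and a peak of 13 stood in eG1-1 replicate 2. By position, an eG1-1 peak of score 20 lay 6 bp from the region at Snx18, a sorting nexin gene.

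Across all protein-coding genes, 377 of 20665 (1.82%) had one of the 635 regions at an end. Of the 8762 genes with a region of both mito lists and at least 1 LM list at an end, these were 4.30%. The highest mito scores at gene ends belonged to genes of many functions. Bicra, a subunit of a BAF remodelling complex, scored 154 and 167 in mito and 44 in LM replicate 1, with no peak in LM replicate 2. Znrf1, a ubiquitin ligase, scored 142 and 293 in mito, with 101 and 78 in LM. Lmtk2, a membrane-anchored kinase, scored 141 and 181 in mito, with 99 and 74 in LM. Within their lists, Znrf1 stood at the 90.5 and 98.8 percentile in mito and the 80.5 and 76.0 percentile in LM, and Lmtk2 at 90.3 and 93.9 in mito, with 79.9 and 74.1 in LM. Scores and percentiles place a peak within its own list and are not compared between lists as an amount of opening. Rab5if had 159 and 138 in mito, with 83 and 25 in LM, and Piezo1, a mechanically gated channel, 124 and 142 in mito, with 96 and 16 in LM. Myl6, a myosin light chain gene with the CCAAT box and the TGACGTCA word shown above, scored 113 and 133 in mito, with 65 and 97 in LM. Tmco1, a calcium channel of the endoplasmic reticulum, scored 141 and 110 in mito, with 90 and 42 in LM. These genes had no eG1-1 peak in the 1 kb window around that end.

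The zinc finger gene Zfp282 and the chaperone gene Fkbp8 had an eG1-1 peak in 1 list within the window. Zfp282 scored 127 and 128 in mito and 80 in LM replicate 1, and Fkbp8 111 and 142 in mito, with 35 and 53 in LM. The shared region of Rbmxl1 and Slc10a7 scored 104 and 123 in mito and 72 in LM replicate 1. Usp14, a deubiquitinase of the proteasome, scored 103 and 104 in mito and 89 in LM replicate 1, and its nearest eG1-1 peak lay 15428 bp away.

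**Figure D5:**
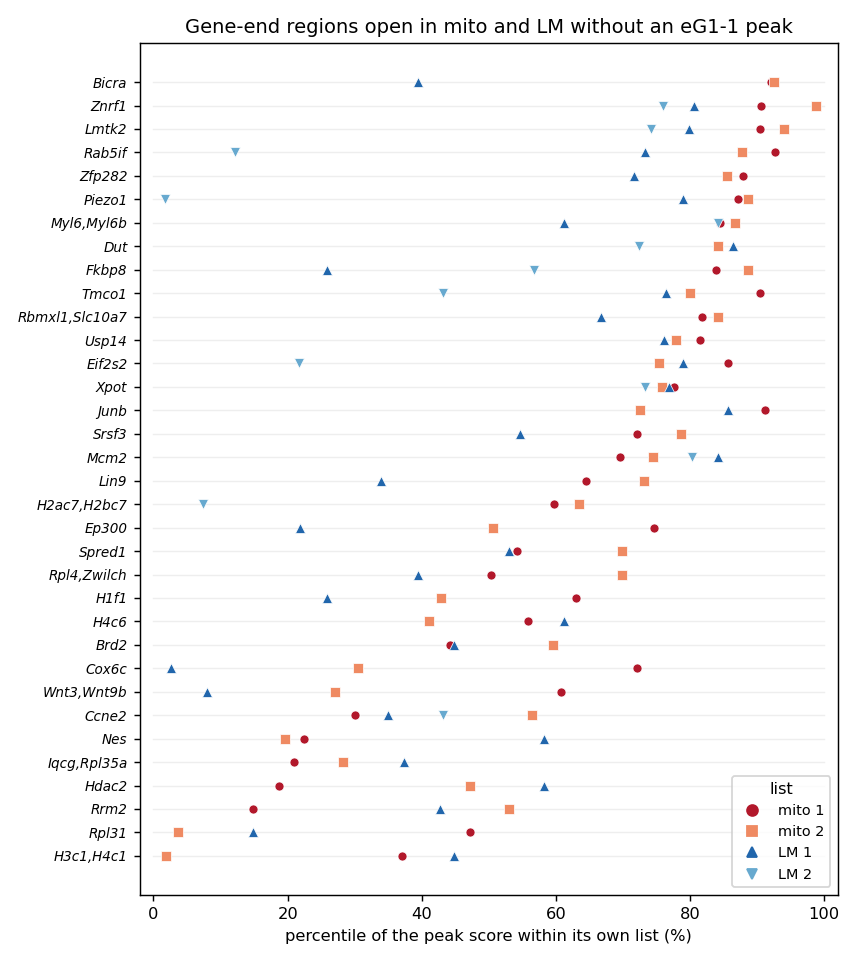
Percentile of the peak score within its own list (x axis) at gene-end regions without an eG1-1 peak, in the order of the 12 with the highest lower mito score and then of the genes of the chosen lists; each symbol is 1 list, and a missing LM symbol is a list without a peak. The mito symbols of Znrf1 lie at 90.5 and 98.8, and those of Rrm2 at 14.9 and 53.0.

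Dut and Mcm2, which serve nucleotide supply and DNA replication, were among the 10 regions with the highest lower LM score. The same 10 held Znrf1, Lmtk2, Xpot, the region of Ranbp1 and Trmt2a, and regions away from gene ends, so no shared function is read from them. Dut, the dUTPase that keeps uracil out of DNA, scored 112 and 123 in mito, with 123 and 72 in LM. At Mcm2, part of the helicase that opens DNA at forks, the peaks of mito had scores of 78 and 96 and those of LM 113 and 87. Rrm2, the small subunit of ribonucleotide reductase, scored 30 and 63 in mito and 47 in LM replicate 1, and Ccne2, which encodes cyclin E2, 39 and 67 in mito and 42 in both LM lists. By percentile within each list, Mcm2 stood at 69.6 and 74.5 in mito, with 84.1 and 80.3 in LM, and Dut at 84.2 in both mito lists and 86.4 and 72.5 in LM. Of 55 listed genes of replication and G1/S, 3 had one of the regions, Mcm2, Rrm2 and Ccne2, which is 7.14% of the 42 with a mitotic and late mitotic region, beside 4.30% of all such genes. The nearest eG1-1 peak lay 2932 bp from the Mcm2 region, 588 bp from that of Rrm2 and 991 bp from that of Ccne2.

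Xpot, the exporter of tRNA from the nucleus, scored 93 and 99 in mito, with 91 and 73 in LM, and lay 281 bp before its start by the centre of the mito peaks. Ranbp1, which binds the GTPase Ran, and Trmt2a, a tRNA methyltransferase, shared a region that scored 47 and 49 in mito, with 75 and 70 in LM. Its percentiles were 41.2 and 38.4 in the mito lists and 68.5 and 71.2 in the LM lists. Eif2s2, a subunit of the initiation factor eIF2, scored 117 and 98 in mito, with 96 and 30 in LM, and Srsf3, a splicing factor, 82 and 106 in mito and 58 in LM replicate 1. Of 43 listed splicing and translation factors, 3 had one of the regions, Xpot, Eif2s2 and Srsf3, which is 7.14% of the 42 with a mitotic and late mitotic region, beside 4.30% of all such genes.

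The 13 gene lists together held 25 such genes of 640, or 5.59% of the 447 with a mitotic and late mitotic region. Of all protein-coding genes with such a region the share was 4.30%. Histone genes had the most, 6 of 67, or 6 of the 47 with such a region (12.8%), in 4 regions. H2ac7 and H2bc7 shared a region with scores of 64 and 76 in mito and 20 in LM replicate 2. H4c6 scored 60 and 51 in mito and 65 in LM replicate 1, H1f1 68 and 52 in mito and 35 in LM replicate 1, and the region of H3c1 and H4c1 44 and 19 in mito and 49 in LM replicate 1. All lie in the large histone cluster of chromosome 13. Of these 4 regions, that of H4c6 alone had no eG1-1 peak in its 1 kb window.

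Chromatin enzymes contributed 4 of 66 genes, or 4 of the 34 with a mitotic and late mitotic region (11.8%), beside 4.30% of all such genes. Besides Bicra these were Ep300, an acetyltransferase, with 87 and 60 in mito and 33 in LM replicate 1, and Brd2, a reader of acetylated histones, with 49 and 71 in mito and 49 in LM replicate 1. Hdac2, a histone deacetylase, scored 32 and 57 in mito and 61 in LM replicate 1. Ep300 and Hdac2 also had a peak of 1 eG1-1 list in the window of the same end. Ribosomal protein genes gave 3 of 80, Rpl4 (55 and 87 in mito, 44 in LM replicate 1), Rpl35a (33 and 41, and 43) and Rpl31 (52 and 22, and 28). These were 5.36% of the 56 with a mitotic and late mitotic region, near the share of all such genes.

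Signalling genes gave 2 of 47, or 2 of the 24 with a mitotic and late mitotic region (8.33%). Spred1, an inhibitor of Ras and ERK signalling, scored 58 and 87 in mito and 56 in LM replicate 1, with an eG1-1 peak of score 93 at 268 bp. Wnt3, a Wnt ligand, scored 65 and 40 in mito and 23 in LM replicate 1. The mitosis list gave 1 of 51, Lin9 of the MuvB complex (70 and 93 in mito, 41 in LM replicate 1). Junb, an AP-1 subunit, was the 1 of 29 immediate early and stress genes (146 and 92 in mito, 119 in LM replicate 1). The mito peaks of its region were centred 2073 bp after the nearest start site. Cox6c, of cytochrome c oxidase, was the 1 of 51 mitochondrial and metabolic genes (82 and 43, and 19). Of 35 lineage genes 1 had a region, Nes, a filament gene of neural progenitors (34 and 35 in mito, 61 in LM replicate 1). Lin9, Junb, Cox6c and Nes were 1 of the 47, 25, 40 and 3 genes of their lists with a mitotic and late mitotic region. None of the 32 pluripotency, 23 chromatin architecture or 61 general transcription genes had one. Of these, 20, 14 and 53 had a mitotic and late mitotic region at an end, and at the 4.30% of all such genes lists of this size hold few, so nothing is read from the counts of 0.

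Away from gene ends, a few regions had far higher scores. The region chr13:112578184-112578726 inside Il31ra, a cytokine receptor gene, scored 1102 and 1427 in mito and 400 in LM replicate 1, and its nearest eG1-1 peak lay 68282 bp away. The region chr13:9011708-9012167 scored 772 and 409 in mito, with 315 and 607 in LM. The region chr3:62159103-62159362, 179414 bp from the nearest protein-coding gene, scored 330 and 610 in mito, with 135 and 484 in LM. All 3 stood in the top 10% of each mito list. The other distal regions named by score were weaker, from 274 and 107 in mito at chr3:96340743-96341320 to 83 and 104 at Gm39098 inside Tacc2.

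The region at chr3:96340743-96341320 lay within 250 bp of n-TQctg5, annotated as a tRNA gene, and scored 170 and 77 in LM. Within 250 bp, 3 of the 635 regions lay at a tRNA gene (0.472%, 0.161% to 1.38%), against 91 of 13016 regions kept in both eG1-1 lists (0.699%). The others were at n-TRccg3 (32 and 36 in mito, 33 in LM replicate 2) and n-TAcgc9 (13 and 37 in mito, 59 in LM replicate 1). Genes annotated as small nuclear and nucleolar RNA each had 1, Rnu3a (45 and 115 in mito, 34 in LM replicate 1) and Snord49b (76 and 39 in mito, 44 in LM replicate 1), and miRNA genes had 1, Mir1904 (40 and 90, and 39). Ends of long noncoding RNA genes were within 1 kb of 72 regions (11.3%, 9.10% to 14.0%), and of 10.8% of regions kept in both eG1-1 lists.

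The regions were scattered over the genome. Only 24 of the 635 lay within 10 kb of another, in 12 pairs, and the median gap between neighbours was 612597 bp. Per chromosome, the share of regions of both mito lists and at least 1 LM list without an eG1-1 peak ran from 2.87% on chromosomes 8 and 14 to 5.71% (4.36% to 7.45%) on chromosome 6, around 3.91% overall. Chromosome 11 held the most, 62.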

How the data were processed

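The 6 deposited lists, 1 per sample, give peaks with a score on mm10. The files have no header line; per the peak names, peaks were called per sample in the paired-end mode BAMPE. The score is the authors' own whole number, 13 at the lowest in each deposited list, of unstated scale, used only to describe, rank and filter within a list. The submitters' processing notes name STAR 2.7.0e, SAMtools 1.10, deepTools 3.5.1, MACS2 2.2.4, Picard and bedtools, without roles. The sources used here do not give caller threshold, Tn5 shift or read depth.

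Peaks on chromosomes 1 to 19 were merged at 1 bp (pandas 2.3.3, NumPy 2.4.6). The strongest peak of a list gave a region's score. Gene ends came from RefSeq on GRCm38.p6, without strand, so a gene end can be the start or the far end of a gene. Start sites and sequences came from its promoter windows. Shares have Wilson 95% intervals (statsmodels 0.14.6). The merge and rule were tested on simulated lists. Regions and gene lists were chosen with earlier results of these data known. Named were the 12 gene-end and 8 distal regions with the highest lower mito score, the 10 with the highest lower LM score, those at listed genes, and those at the limits of the rule or nearest to or farthest from an eG1-1 peak; where fewer are given, the rest are in ranges or figures. Aspscr1 and Ran were chosen after their values were seen. One of the regions named by this rule is not reported here.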

Additional observations from a re-analysis of the deposited data

How the results depend on the processing

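The count of 635 regions depended on list length and thresholds. It was 1748 with the strongest 20289 peaks of each list, 1369 where a list had to cover at least 50% of a region, and 500 at a score of at least 50 in every list. It was 113 when that score was asked of mito and LM alone, 128 with both LM lists required, 466 and 607 without eG1-1 peaks within 1 kb and 200 bp, and 233 to 2834 with 1 list left out. Of the 635, 112 remained at a score of 50 and 333 at equal length. Regions of both LM lists numbered 128, but 73 at a score of at least 50 throughout, 636 at equal length, 17 with that score in mito and LM alone, and 162 to 1002 with 1 list left out.

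The gene-end share of 51.0% was 65.4% at a score of at least 50, 67.3% with that score in mito and LM alone, 61.4% under that coverage rule, 57.8% with both LM lists, and 44.9% and 57.0% with windows of 500 bp and 2 kb. With all annotated genes it was 57.8%, and with 1 list left out 41.6% to 55.5%. At 500 bp, regions kept in both eG1-1 lists had 45.2%. By part of the mito ranking it was 38.4%, 56.0% and 71.2%. The share 250 bp to 1 kb from a start site, 20.7%, was 17.6% with both LM lists, 16.3% and 24.2% in the lowest and highest part, and 13.2% to 23.6% with 1 list left out. The CCAAT share of 29.4% was 43.7% at a score of at least 50 in mito and LM alone, 36.3% under the coverage rule, 36.5% with both LM lists, 43.4% in the highest part of the ranking and 27.2% to 38.1% with 1 list left out. It was below that of regions kept in both eG1-1 lists under every setting run. With both LM lists required, and without near eG1-1 peaks, the kept regions stayed those of the main rule (46.9%). The settings for the CCAAT and start-site shares, the parts of the ranking, the single runs and the 200 bp margin were chosen after seeing the data. The other settings run left these results within their intervals or within 1.5 times. The cause of these shifts was not tested. Within the lists of run 1 alone the count was 3086 and the start-site share 17.0%. Within those of run 2 alone the gene-end share was 32.2% and the start-site share 13.6%. No paired analysis was possible because no result comes from a test, and these values within each run describe the pairing by replicate number. Read depth is unknown and limits what a missing peak can show.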

Other observations

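Chromosome X was outside the choice of regions. The same rule there gave 13 of 314 regions held by both mito lists and at least 1 LM list (4.14%, Wilson 95% interval 2.44% to 6.95%), beside 3.91% on chromosomes 1 to 19. The highest mito scores among them were at Rbbp7, which encodes a histone-binding subunit shared by several chromatin complexes, with 148 and 126 in mito and 93 in LM replicate 1. Phf6, a chromatin-associated zinc finger gene, scored 69 and 41 in mito and 74 in LM replicate 1. Uba1, the main ubiquitin-activating enzyme, scored 19 and 43 in mito and 35 in LM replicate 1. A region away from gene ends scored 31 and 54 in mito, with 152 and 40 in LM, the highest LM score of the 13. Syap1 was the single X-linked gene end held by both LM lists, with 33 and 90 in mito, with 64 and 39 in LM.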
